A study of Rattus norvegicus with 5 samples.

Results

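Rod bipolar cells of rat retina were taken as the cell barcodes that carried the RNA of 4 rod bipolar genes and of the ON bipolar pathway, with a high share of mitochondrial RNA allowed. A barcode had to hold at least 200 genes and at most 40% mitochondrial unique molecular identifiers (UMIs, each standing for 1 captured RNA molecule). It also needed at least 3 UMIs over Prkca, Car8, Qpct and Vstm2b, at least 3 over Pcp2, Trpm1, Grm6 and Gng13, none of Htr3a, and at most 1 over Gad1, Gad2 and Slc6a9. Of 41184 barcodes within the limits on genes and mitochondrial share, 1554 met these conditions, which is 3.77%. They numbered 186 in the control library, 825 at 2 weeks of diabetes, 158 at 4 weeks and 385 at 8 weeks. Because measured values chose the members, the levels of these 12 genes are given as a description only.

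Rod bipolar cells are the interneurons that carry the signal of rod photoreceptors to the AII amacrine cells, and they depolarise when light reaches the rods. In darkness, glutamate from rods activates the receptor mGluR6 (Grm6) on their dendrites, and the G protein Go then keeps the cation channel TRPM1 closed. In light the channel reopens as Go is deactivated, a step that RGS proteins speed. Their axon terminals release glutamate at ribbon synapses and receive GABA feedback from amacrine cells. The cells express protein kinase C alpha, encoded by Prkca, which is the usual antibody marker for them.

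The series measured single-cell RNA of retina from Sprague Dawley (SD) rats by droplet sequencing, to follow retinal cells in early diabetes. The control library comes from rats given citrate phosphate buffer (0 weeks). The diabetic libraries come from fasted rats given 1 intraperitoneal injection of streptozotocin at 45 mg/kg, a toxin of pancreatic beta cells. Those with glucose above 200 mg/dL on the third day were kept on a high-fat, high-sugar diet for 2, 4 or 8 weeks. All rats ate standard feed before this, and the labels give no age, no allele and no number of animals per library. The 4 libraries analysed are control replicate 2 and 1 library per diabetic time, and control replicate 1 was not analysed here. With 1 library per group no test between groups is possible, and time of diabetes cannot be told apart from the rats' age and diet, nor from the animal and the preparation. Intervals given with shares and ratios are exact binomial 95% intervals and cover counting error only. Series of 4 values below are in the order control, 2 weeks, 4 weeks and 8 weeks.

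The libraries held 7649 to 16128 barcodes and 20151789 to 34177860 UMIs. Members were deep barcodes, with median counts of 5792, 3904, 5262.5 and 5591 UMIs against 1428, 1488, 1071 and 2671 over all barcodes within the limits. Their nuclear-encoded UMIs, the depth behind every gene value, summed to 837908, 2540761, 684819 and 1906071. Levels are in CPM, the usual scaling of a gene's UMIs to the nuclear-encoded total of the members, with no correction for gene length. Between 13 and 70 barcode sequences were shared by any pair of libraries, and none of the shared sequences was a member in both.

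The members carried the markers of rod bipolar cells in all 4 libraries. Prkca stood at 456, 378, 197 and 415 CPM, against 62.4, 66.5, 36.5 and 97.8 CPM over all barcodes within the limits. Qpct, which makes the pyroglutamate end of some peptides, was the highest of the rod bipolar genes at 1513, 1799, 1362 and 1187 CPM. Car8, a carbonic anhydrase-related protein without enzyme activity, stood at 603, 826, 508 and 562 CPM, and Vstm2b, a membrane protein of the immunoglobulin superfamily, at 408, 445, 282 and 236 CPM. Prkca was lowest in the 4-week library, the library with the fewest members. At the edge of the rule, 38, 118, 32 and 77 members had exactly 3 UMIs of the 4 rod bipolar genes, and 89, 190, 67 and 127 barcodes fell just outside with exactly 2. Median depths were 5147, 3153, 4221 and 4327 UMIs just inside and 3847, 3031, 3917 and 3879 UMIs just outside.

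Many members also held rod RNA. Rod markers, among them Sag, Pdc, Gnat1, Nr2e3 and Nrl, made up a median of 0.34, 0.73, 0.63 and 0.59% of the members' nuclear UMIs, against 2.49, 4.72, 3.60 and 2.91% in rod-like barcodes and 0.05, 0.37, 0.07 and 0.06% in Müller-like barcodes. Members with at most 0.5% of such UMIs are called rod-poor here, a limit chosen after seeing the data. They numbered 100, 353, 75 and 183, or 45.8% of all members, and values for them stand beside many of the results. Of the members, the doublet caller Scrublet marked 57, 186, 28 and 25, of which 54, 172, 25 and 23 were not rod-poor.

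Markers of several other retinal cells were sparse in the members. The amacrine list includes Gad1, Gad2 and Slc6a9, which the rule itself limits, so its sum was low in part by selection. Of the OFF cone bipolar markers, Vsx1 and Scgn averaged 97.0 and 55.0 CPM in members over the 4 libraries. Summed over each list, amacrine markers reached 14.6 to 38.2 CPM, horizontal cell markers 5.84 to 11.5 CPM, microglial markers 1.46 to 38.6 CPM and pericyte markers 0 to 32.7 CPM, while the rod bipolar markers, the 4 genes of the rule and Trpm1, reached 3103 to 5060 CPM. Müller glia markers were 71.6, 147, 418 and 152 CPM and endothelial markers 8.35, 113, 8.76 and 63.0 CPM. Ganglion cell markers were 2.39, 17.3, 561 and 3.15 CPM, and 381 of the 384 such UMIs at 4 weeks sat in 1 member. That member also held 422 of the 423 Calb2 UMIs of its library. The horizontal cell factors Onecut1 and Onecut2 were at 0 in all 4 libraries.

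Most members had a high mitochondrial share. The median share of UMIs from the 13 mitochondrially encoded genes was 29.4, 24.6, 27.2 and 27.6% in members, with quartiles from 20.3 to 34.6% over the libraries. It was 2.98, 7.40, 1.96 and 3.23% in rod-like and 2.29, 4.68, 3.88 and 4.22% in Müller-like barcodes. Rod-poor members were somewhat higher, at 30.6, 26.0, 29.6 and 30.9%. Other ON bipolar barcodes without Htr3a and with at least 3000 UMIs, also rod-poor, reached medians of 25.1, 18.1, 23.7 and 26.6%, below the 31.3, 25.6, 30.2 and 31.1% of rod-poor members of that depth in every library. A limit of 20% would have kept only 319 of the 1554 members, and 83.3, 76.8, 86.7 and 80.3% of members lay above it. At the upper limit, 42, 90, 30 and 65 members had 35 to 40% mitochondrial UMIs, and 32, 53, 21 and 38 barcodes with the same markers had 40 to 45%.

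**Figure D1:**
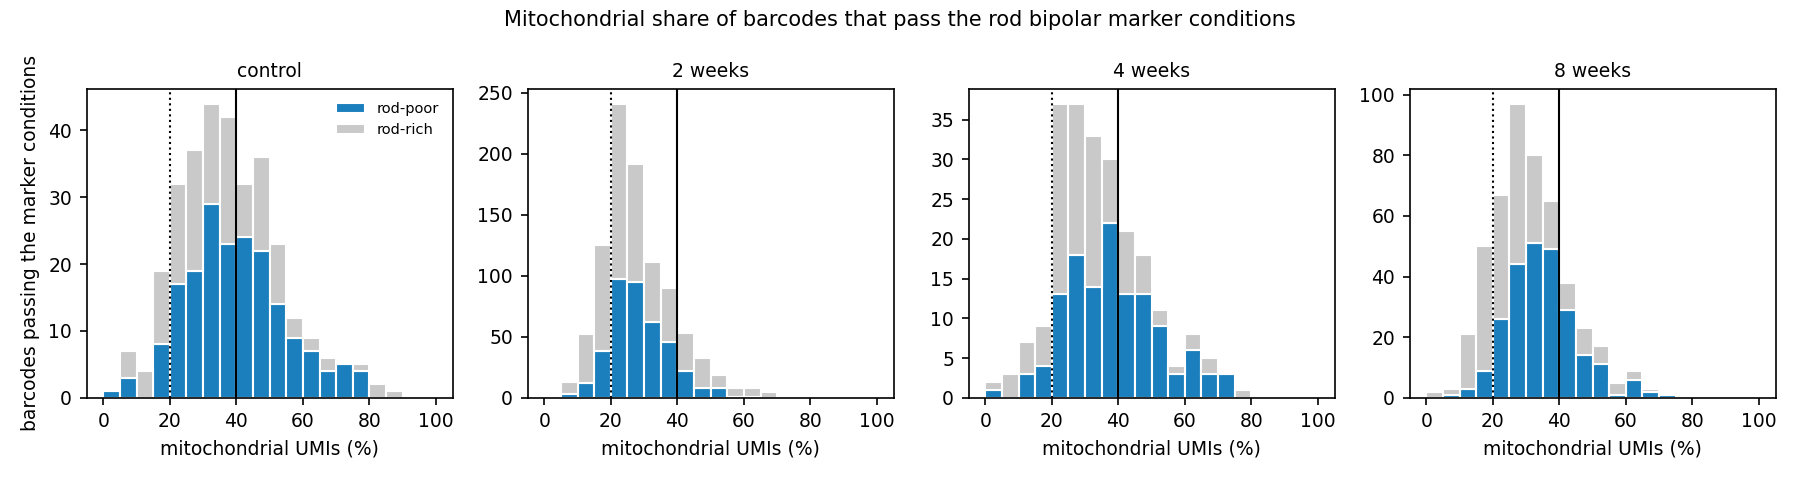
Histograms of the mitochondrial share of UMIs (x axis, percent) for all barcodes that met the marker conditions in each library, with the number of barcodes on the y axis, rod-poor barcodes in blue and the others in grey. The dotted line marks 20% and the solid line the limit of 40%: most members lie between the 2 lines in every library, and the distributions run past the limit without a break.

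The share of rod bipolar barcodes among all barcodes was higher at 2 and 8 weeks than in the control library. It was 2.06% (1.77 to 2.37) in control, 5.32% (4.98 to 5.69) at 2 weeks, 1.60% (1.36 to 1.86) at 4 weeks and 5.70% (5.16 to 6.28) at 8 weeks. The log2 ratios to control were 1.37 (1.14 to 1.61), −0.37 (−0.68 to −0.05) and 1.47 (1.22 to 1.73). The 2-week and 8-week libraries stood well above the other 2, with no steady order over time. Among rod-poor members the ratios were 1.04 (0.72 to 1.38), −0.54 (−1.0 to −0.10) and 1.29 (0.93 to 1.66). The rod RNA, depth and doublet calls given above differ between libraries. With barcodes thinned to 1000 UMIs before the rule was applied, the ratios were 1.47, −0.59 and 0.88. Without the members and barcodes marked by Scrublet they were 1.62, −0.10 (−0.46 to 0.26) and 1.88. With no limit on the mitochondrial share the ratios were 0.84 (0.66 to 1.03), −0.59 (−0.84 to −0.34) and 0.97 (0.76 to 1.18). Of barcodes with these markers, the 40% limit left out 131 of 317 in control and 129 of 954 at 2 weeks. At 4 and 8 weeks it left out 71 of 229 and 96 of 481. The part of rod RNA, depth, doublets and the mitochondrial limit in these shares was not tested further.

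Set against ON bipolar barcodes only, the 2-week library stood apart from the others. These were the members plus barcodes with at least 3 UMIs of the ON genes of the rule and at most 1 of its 4 rod bipolar genes. Htr3a could be present, and the limit on Gad1, Gad2 and Slc6a9 was kept. Left out were barcodes without Htr3a that held exactly 2 UMIs of the rod bipolar genes (89, 190, 67 and 127). Barcodes with Htr3a and at least 3 such UMIs (36, 119, 23 and 71) were also left out. Members were 12.1% of 1532 ON bipolar barcodes in control (10.5 to 13.9), 29.3% of 2818 at 2 weeks (27.6 to 31.0), 13.2% of 1201 at 4 weeks (11.3 to 15.2) and 18.4% of 2087 at 8 weeks (16.8 to 20.2). Among rod-poor barcodes with at least 3000 UMIs they were 9.71% of 947 (7.90 to 11.8), 44.3% of 603 (40.3 to 48.3), 12.9% of 505 (10.1 to 16.1) and 15% of 1087 (12.9 to 17.3). The 8-week interval lay above that of control in both settings, and above that of 4 weeks over all members. The control and 4-week intervals overlapped in both settings. Those of 4 and 8 weeks overlapped among rod-poor barcodes with at least 3000 UMIs. The interval of the 2-week library lay far above all the others.

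The members were next set beside other ON bipolar barcodes, those with at most 1 UMI of the 4 rod bipolar genes and no Htr3a, both sides rod-poor and with at least 3000 UMIs (92, 267, 65 and 163 members against 663, 233, 328 and 693 barcodes). The rule itself separated these sides, so the values are a description without a test. Of 3727 genes compared, 85 were at least 2-fold higher in members in every library (2.28%), 6 of them rule genes, and 42 at least 2-fold lower (1.13%).

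Vav3, Ccdc136 and Lrrtm4 were among the genes far above their level in other ON bipolar barcodes. Vav3, an exchange factor for small GTPases, was at 164, 241, 111 and 122 CPM in members and at 3.26, 3.93, 1.00 and 0.99 CPM in the others. Ccdc136, a coiled-coil protein, was at 712, 1160, 846 and 1064 against 19.6, 23.6, 42.1 and 29.6 CPM. Lrrtm4, a leucine-rich synaptic adhesion protein, was at 111, 136, 77.9 and 154 against 3.26, 3.93, 2.01 and 8.40 CPM. In all 3 genes the lowest member library was above the highest of the other side. Ccng1, encoding cyclin G1, was at 1388, 1578, 1047 and 779 against 70.3, 74.7, 77.2 and 70.2 CPM. Drd2, the dopamine D2 receptor, was at 139, 170, 74.2 and 129 against 29.8, 15.7, 22.1 and 32.1 CPM, and at 68.8, 53.4, 60.4 and 47.0 CPM in ON bipolar barcodes with Htr3a.

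Transcription factors of bipolar cells also differed between the sides. Bhlhe23, a factor that rod bipolar cells need in mice, was at 267, 290, 186 and 219 CPM in members against 29.8, 65.5, 31.1 and 46.0 CPM. Prdm8, also needed by these cells in mice, was at 214, 203, 156 and 181 against 34.0, 47.2, 38.1 and 52.9 CPM. Isl1, a LIM-homeodomain factor of ON bipolar cells, was at 757, 1481, 843 and 988 against 192, 573, 188 and 261 CPM. Both sides carried Isl1, and the members had the higher level in each library. On the lower side, the homeodomain factor Meis2 was at 11.1, 7.78, 3.71 and 18.4 CPM in members against 175, 169, 134 and 173 CPM. The pacemaker channel gene Hcn4 was at 50.1, 8.89, 11.1 and 46.8 against 171, 90.4, 92.3 and 122 CPM. Otx2, which bipolar cells are known to need, was listed at 0 in all 4 libraries. This held in the members and in other ON bipolar barcodes with and without Htr3a alike.

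**Figure D2:**
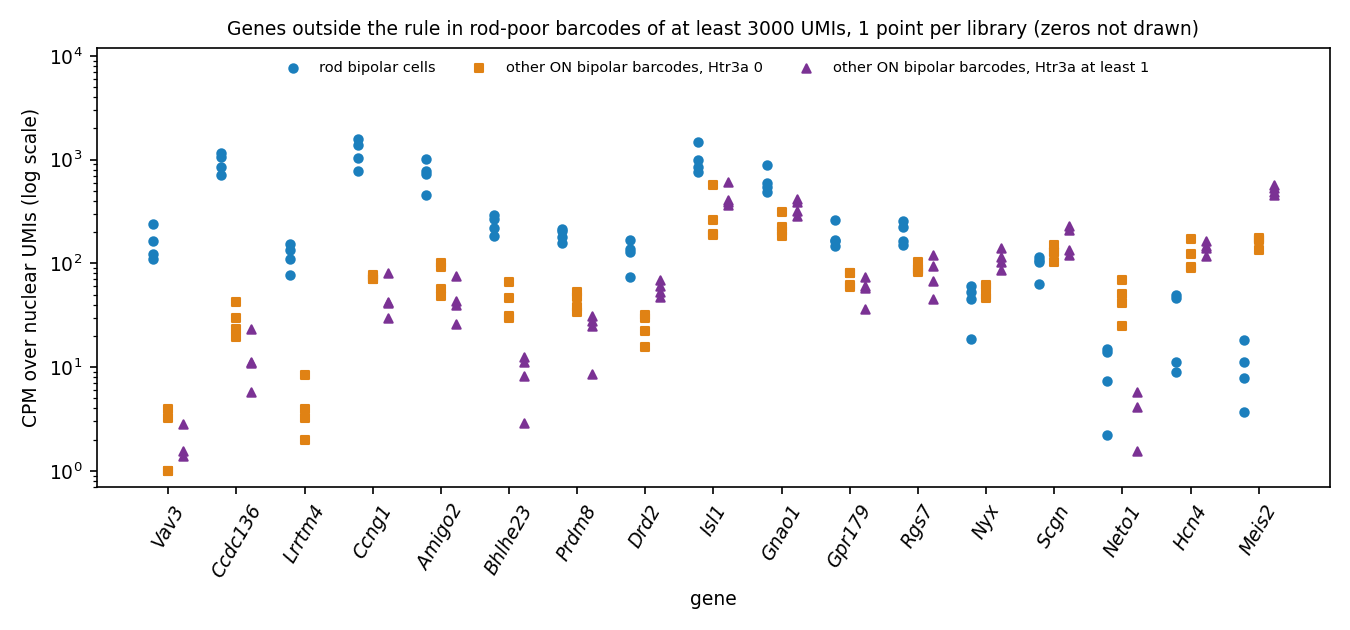
Levels of 17 genes (y axis, CPM, log scale) in rod-poor members of at least 3000 UMIs, in other ON bipolar barcodes without Htr3a and in those with Htr3a, with 1 point per library and zeros not drawn. Vav3, Ccdc136 and Lrrtm4 are separated by more than an order of magnitude from the ON bipolar barcodes without Htr3a, Gnao1 by less, and Meis2 and Hcn4 lie on the opposite side.

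The genes of the ON cascade, from mGluR6 to TRPM1, were read in all 4 libraries. Trpm1, the cation channel at the end of the cascade, was at 1292, 1612, 753 and 953 CPM, and at 1654, 1918, 786 and 1286 CPM in rod-poor members. Grm6, the glutamate receptor, was at 159, 155, 159 and 174 CPM. Trpm1 was lowest at 4 weeks and highest at 2 weeks, while Grm6 lay within a narrow range over all members. Pcp2, a regulator of Go signalling, was at 10709, 13678, 10820 and 10466 CPM, and Gng13, the G protein gamma subunit of ON bipolar cells, at 4141, 4597, 4797 and 3359 CPM. These 4 are rule genes, and nothing further is read from them.

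Gnao1, the alpha subunit of Go, was at 492, 717, 464 and 374 CPM. Its log2 ratios to control were 0.54 (0.39 to 0.70), −0.08 (−0.30 to 0.13) and −0.40 (−0.57 to −0.22), and 0.52, −0.36 and −0.20 in rod-poor members. The 2-week library had the highest Gnao1 level with and without the rod-rich members. It was also the highest in other ON bipolar barcodes, where Gnao1 stood at 226, 312, 186 and 207 CPM. Gnb3, the beta subunit of the same G protein, was at 1248, 1702, 1764 and 1155 CPM, with log2 ratios of 0.45 (0.35 to 0.55), 0.50 (0.38 to 0.62) and −0.11 (−0.22 to −0.00). In other ON bipolar barcodes Gnb3 was above control at all 3 times, at 853, 1368, 1428 and 1181 CPM. Rgs7, an RGS protein that speeds the deactivation of Go, was at 148, 227, 159 and 163 CPM, and its log2 ratio at 2 weeks was 0.62 (0.34 to 0.91). Over all members Rgs7 too was highest at 2 weeks and alike in the other 3 libraries. In rod-poor members of at least 3000 UMIs it was at 164, 257, 152 and 222 CPM, with the 8-week library also above control.

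Gpr179, the orphan receptor that holds the RGS complex at the dendrite, was at 175, 161, 147 and 178 CPM, a narrow range over all members. In rod-poor members of at least 3000 UMIs Gpr179 was highest at 8 weeks, at 169.7, 165.6, 148.4 and 262.5 CPM. Gnb5, the partner subunit of RGS7, was low at 27.4, 20.1, 10.2 and 54.0 CPM, and Ric8b, a chaperone of G protein alpha subunits, at 38.2, 24.0, 14.6 and 59.8 CPM. Over all members both were lowest at 4 weeks and highest at 8 weeks. In rod-poor members of at least 3000 UMIs the control and 8-week libraries were close, with Gnb5 at 25.04, 16.7, 11.1 and 26.8 CPM and Ric8b at 16.7, 12.2, 0 and 13.4 CPM. Nyx, the leucine-rich protein nyctalopin that places TRPM1 at the dendrite, was at 35.8, 36.2, 26.3 and 26.2 CPM. Lrit1, a synaptic adhesion protein of photoreceptors, was at 475, 409, 508 and 498 CPM, and Rgs9bp, the anchor of RGS9, at 20.3, 14.96, 16.1 and 35.7 CPM. Lrit3, a relative of Lrit1 that is needed to place TRPM1, stayed under the mean of 20 CPM set for use, at 15.5, 6.69, 4.38 and 18.9 CPM. Rgs11 and Rgs7bp were not matched by symbol. Of the 9 used genes of the list that are not rule genes, 4, 3 and 6 were above control at 2, 4 and 8 weeks, with median log2 ratios of −0.13, −0.25 and 0.07.

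The promoters of the cascade genes were read for TAATCC, the core letters bound by OTX2 and CRX, on either strand (GGATTA on the other), since these homeodomain factors act in bipolar cells and photoreceptors. Promoters of 250 bases before to 50 after the start were taken from RefSeq on the GRCr8 build and matched for 12 of the 16 listed genes. Of these, 3 held the letters. They are printed 5′ to 3′ on the strand of the gene, with the match in capitals.
Trpm1, chr1:127130436-127130735, plus strand: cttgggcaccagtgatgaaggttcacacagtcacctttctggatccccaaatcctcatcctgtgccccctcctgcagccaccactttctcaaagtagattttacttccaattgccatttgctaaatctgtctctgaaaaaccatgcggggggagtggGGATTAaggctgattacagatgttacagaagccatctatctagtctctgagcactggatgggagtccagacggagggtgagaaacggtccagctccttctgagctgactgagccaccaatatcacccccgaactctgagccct
Lrit1, chr16:12842089-12842388, plus strand: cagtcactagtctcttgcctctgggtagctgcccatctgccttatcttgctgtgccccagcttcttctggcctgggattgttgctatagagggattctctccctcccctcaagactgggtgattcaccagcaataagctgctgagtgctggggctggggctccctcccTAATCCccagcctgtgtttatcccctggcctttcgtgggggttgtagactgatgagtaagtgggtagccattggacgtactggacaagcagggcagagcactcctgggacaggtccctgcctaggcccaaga
Nyx, chrX:11974667-11974966, minus strand: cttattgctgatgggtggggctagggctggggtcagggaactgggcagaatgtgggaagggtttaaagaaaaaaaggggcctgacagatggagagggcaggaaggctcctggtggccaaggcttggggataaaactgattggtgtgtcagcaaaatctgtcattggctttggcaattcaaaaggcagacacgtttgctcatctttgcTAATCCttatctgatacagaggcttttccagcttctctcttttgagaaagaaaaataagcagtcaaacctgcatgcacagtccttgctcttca
The matches begin 93, 82 and 43 bases before the start in Trpm1, Lrit1 and Nyx. The letters were in 2399 of all 33469 promoters of this length, or 7.17%. Among the 40 genes that stood highest in members over other ON bipolar barcodes, 30 had a promoter and 2 of these, Tanc1 and Slc24a4, held the letters, or 6.67%. A match describes the letters of the window and is not a binding site.

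Differences between the diabetic libraries and control were counted over 6300 nuclear genes with a mean of at least 20 CPM. At 2 weeks 102 genes were at least 2-fold higher (1.62%) and 250 at least 2-fold lower (3.97%). At 4 weeks the counts were 177 (2.81%) and 190 (3.02%), and at 8 weeks 90 (1.43%) and 50 (0.794%). In rod-poor members, with 6098 genes, they were 218 (3.57%) and 310 (5.08%) at 2 weeks, 413 (6.77%) and 293 (4.80%) at 4 weeks, and 194 (3.18%) and 132 (2.16%) at 8 weeks. The 3 comparisons share the control library, so a gene high or low in control alone appears in each of them. The genes named below are those with the widest ratios that were also at least as high in members as in all barcodes.

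The genes lower in every diabetic library than in control included a matrix protein and a potassium channel. Edil3, a secreted integrin-binding protein, was at 266, 127, 84.7 and 91.3 CPM, with log2 ratios of −1.07 (−1.32 to −0.81), −1.64 (−2.09 to −1.23) and −1.54 (−1.84 to −1.25). All 3 diabetic libraries lay more than 2-fold below control. In rod-poor members Edil3 was at 338, 163, 108 and 154 CPM, and the ratios were −1.05, −1.63 and −1.13. In other ON bipolar barcodes Edil3 was at 112, 132, 61.2 and 109 CPM, with no library far above the rest.

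Kcnh2, the ERG potassium channel, was at 130, 85.8, 48.2 and 59.3 CPM, with log2 ratios of −0.60 (−0.94 to −0.26), −1.42 (−2.04 to −0.86) and −1.13 (−1.53 to −0.74). The control library was again the highest, also in rod-poor members (ratios of −0.79, −1.24 and −0.82). In other ON bipolar barcodes Kcnh2 stood at 90.8, 66.8, 71.2 and 89.9 CPM. Kcnmb4, the beta subunit that modulates BK potassium channels, was at 65.6, 42.9, 33.6 and 27.8 CPM, and its ratios in rod-poor members were −1.32 (−1.98 to −0.65), −1.50 (−2.72 to −0.52) and −1.91 (−2.85 to −1.07). It belongs to the channel list, and was picked from it after its values were seen. The other potassium and HCN channels did not share this order, and the 11 used genes of that list had median log2 ratios of −0.11, −0.00 and 0.03. Scg2, encoding the vesicle protein secretogranin II, was at 1683, 1297, 1123 and 748 CPM and at 2512, 1628, 1753 and 1602 CPM in rod-poor members. Its log2 ratio at 8 weeks was −1.17 (−1.28 to −1.06) over all members and −0.65 (−0.78 to −0.52) in rod-poor members.

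Other genes were low at 2 and 8 weeks but not at 4 weeks. Tpi1, the glycolytic enzyme triosephosphate isomerase, was at 510, 187, 600.2 and 200 CPM, with log2 ratios of −1.44 (−1.64 to −1.25), 0.24 (0.04 to 0.43) and −1.35 (−1.55 to −1.15). The control and 4-week libraries formed the high pair, and the same held in rod-poor members (ratios of −1.62, 0.23 and −1.16). It was also seen in other ON bipolar barcodes, where Tpi1 stood at 387, 262, 700 and 272 CPM. Zcchc12, a transcriptional coactivator of neurons, was also low at 2 and 8 weeks, at 96.7, 38.2, 84.7 and 47.2 CPM, with rod-poor ratios of −1.78, −0.37 and −0.77. Its UMIs came from only 26, 66, 29 and 52 members, and 1 member held 19.8% of those in control. Pomp, the proteasome maturation protein, was at 77.6, 40.1, 105 and 36.2 CPM, with rod-poor ratios of −0.98, 0.37 and −1.45. Nr4a1, an orphan nuclear receptor of the immediate early genes, was lowest at 8 weeks, at 97.9, 66.1, 74.5 and 39.3 CPM, and its rod-poor ratio there was −0.84 (−1.50 to −0.18).

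At 2 weeks the lowest ratios belonged to genes of different roles. Slk, a kinase of the cytoskeleton and cell adhesion, was at 96.7, 29.9, 61.3 and 50.4 CPM. Its log2 ratio at 2 weeks was −1.69 (−2.16 to −1.22), and −1.82 in rod-poor members. Fcer1a, the alpha chain of the IgE receptor, was at 115, 25.6, 97.8 and 59.8 CPM, but its UMIs came from only 19, 20, 13 and 20 members. Vps13c, a lipid transfer protein of late endosomes and mitochondria, was at 87.1, 31.5, 35.05 and 68.2 CPM, and its log2 ratio of −1.47 at 2 weeks was −0.79 (−1.62 to 0.10) in rod-poor members. Fastk, a regulator of mitochondrial RNA, was at 77.6, 28.3, 45.3 and 56.7 CPM, with a rod-poor ratio of −1.50 at 2 weeks. At 4 weeks the lowest included Gpsm2, a regulator of G protein alpha subunits, at 74.0, 56.3, 26.3 and 98.1 CPM, Pop5, a subunit of RNase P, at 62.1, 72.0, 21.9 and 89.2 CPM, and Ttc9 at 80.0, 106, 33.6 and 88.1 CPM. Their rod-poor ratios at 4 weeks were −2.03 (−4.62 to −0.43), −1.84 (−3.69 to −0.54) and −0.73 (−1.67 to 0.12). The interval of Ttc9 includes 0, and 1 member held 30.4% of its 4-week UMIs.

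On the higher side, Srrm4 had the widest ratio at 2 weeks. Srrm4, the splicing factor that includes neuronal microexons, was at 85.9, 292, 93.5 and 66.6 CPM, with log2 ratios of 1.75 (1.41 to 2.13), 0.12 (−0.39 to 0.63) and −0.37 (−0.80 to 0.07). It was high in the 2-week library alone, and equally so in rod-poor members (1.74, from 1.27 to 2.28). It was at 62.4, 225, 108 and 71.2 CPM in other ON bipolar barcodes, and at 35.8, 117, 57.8 and 46.3 CPM in all barcodes within the limits. The 2-week library was the highest in each of these sets of barcodes.

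Several genes were above control in all 3 diabetic libraries. Uvrag, which acts in autophagy and endosome traffic, was at 53.7, 138.5, 90.5 and 106 CPM, with log2 ratios of 1.35 (0.92 to 1.85), 0.75 (0.18 to 1.34) and 0.97 (0.51 to 1.48), and of 1.44, 0.45 (−0.58 to 1.5) and 1.07 in rod-poor members, where the 4-week value was not clear of counting error. Eef2k, the kinase that slows translation elongation, was at 31.0, 84.2, 74.5 and 59.8 CPM. Its ratios of 1.42, 1.25 and 0.93 were 1.20 (0.45 to 2.13), 0.37 (−0.76 to 1.51) and 0.30 (−0.60 to 1.32) in rod-poor members, so that the 4-week and 8-week values were not clear of counting error there. Smim3, a small membrane protein, was at 60.9, 146, 130.0 and 72.4 CPM, with ratios of 1.25, 1.09 and 0.24 (−0.22 to 0.74). The interval of the 8-week ratio of Smim3 includes 0. Its ratios were 1.53, 0.95 and 0.71 in rod-poor members. Arrb1, beta-arrestin 1, was at 43.0, 90.5, 105 and 64.0 CPM, with ratios of 1.06 (0.56 to 1.62), 1.28 (0.69 to 1.91) and 0.56 (0.03 to 1.15). Its rod-poor ratios were 1.07, 0.97 and 0.43 (−0.31 to 1.27), the last with an interval that includes 0. In other ON bipolar barcodes Arrb1 stood at 54.0, 111, 136 and 70.2 CPM, the same order of libraries, while Smim3 lay between 21.4 and 31.4 CPM there.

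At 4 weeks Tmem145, a membrane protein, was the highest by ratio at 46.5, 45.7, 118 and 63.5 CPM, and its log2 ratio was 1.34 (0.78 to 1.94). Atp6v1g2, a subunit of the proton pump of synaptic vesicles, was at 66.8, 68.5, 147 and 79.2 CPM, and Wdr70 at 39.4, 51.2, 86.2 and 55.1 CPM. Over all members these 3 were highest in the 4-week library. Their rod-poor ratios there were 1.43, 0.95 and 0.86 (−0.09 to 1.86), and that of Wdr70 became −0.064 when barcodes were thinned to 1000 UMIs. At 8 weeks Psmg3, a proteasome assembly chaperone, was at 59.7, 99.97, 92.0 and 136 CPM, Rnf145, a ubiquitin ligase of the endoplasmic reticulum, at 89.5, 113, 120 and 166 CPM, and Atp13a2, a lysosomal polyamine transporter, at 37.0, 50.4, 77.4 and 69.3 CPM. Their rod-poor ratios at 8 weeks were 0.93, 0.64 and 0.97. Grifin, a galectin-related protein, was at 28.6, 66.5, 38.0 and 79.2 CPM, and Mxra7 at 66.8, 151, 78.9 and 90.8 CPM. Rod-poor ratios were 0.76, 0.12 and 1.42 for Grifin and 0.98, 0.28 and 0.40 for Mxra7. Grifin was higher in other ON bipolar barcodes (84.3, 185, 74.2 and 120 CPM) than in the members.

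**Figure D3:**
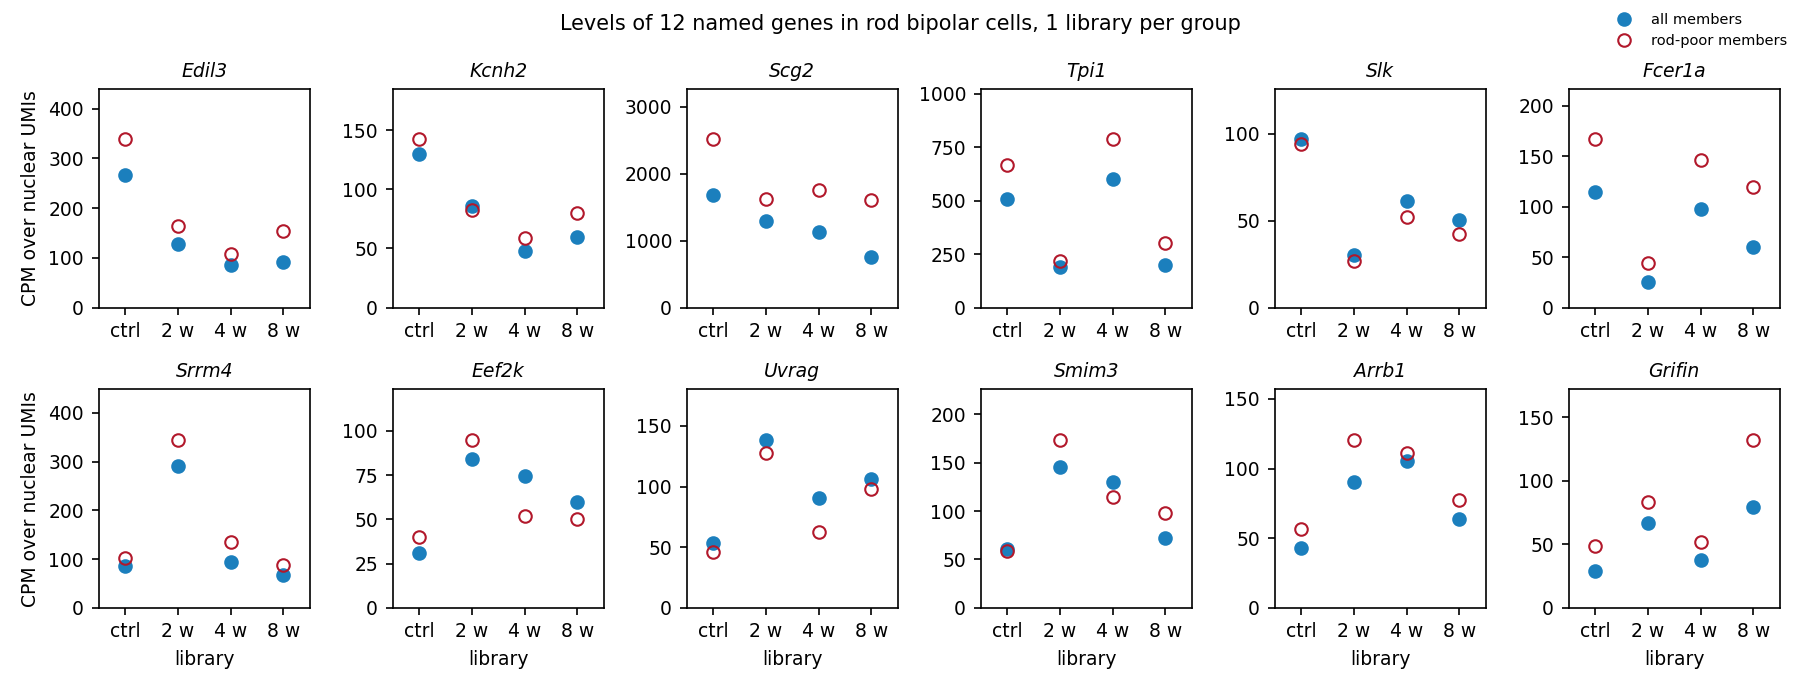
Levels of 12 named genes (y axis, CPM) in the 4 libraries (x axis), with filled points for all members and open points for rod-poor members. Edil3 and Kcnh2 are highest in control, Tpi1 is low at 2 and 8 weeks, and Srrm4 is high at 2 weeks only.

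Lists of genes were read by counts and medians beside those of all 6300 genes, of which 2836, 3353 and 3390 were above control at 2, 4 and 8 weeks, with median log2 ratios of −0.05, 0.03 and 0.03. Bipolar transcription factors had 11 used genes, of which 7, 5 and 6 were above control, with medians of 0.27, −0.01 and 0.30, and of 0.12, −0.26 and 0.15 in rod-poor members. Isl1 was the only one at least 2-fold higher at 2 weeks, at 550, 1211, 809 and 676 CPM. Its log2 ratio was 1.14 (1.00 to 1.28), and 0.93 (0.74 to 1.12) in rod-poor members. The 2-week library was the highest for Isl1 in both sets, and also in other ON bipolar barcodes (192, 573, 188 and 261 CPM). Neurod1, which rods express as well, was at 714, 447, 621 and 1096 CPM over all members and 322, 283, 383 and 392 CPM in rod-poor members.

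Genes of the ribbon synapse were mostly a little below control at 2 weeks, with 15 of 19 used genes lower and a median log2 ratio of −0.30. At 4 and 8 weeks 15 and 7 were lower, with medians of −0.09 and 0.12. Rims2, a scaffold of the active zone, was at 407, 229, 241 and 527 CPM, and Cacna1f, the calcium channel of the ribbon synapse, at 226, 132, 134 and 223 CPM. Cplx4, a complexin of ribbon synapses, was at 431, 262, 428 and 467 CPM. In rod-poor members 17 of 20 used genes were lower at 2 weeks, with a median of −0.31, and the medians at 4 and 8 weeks were −0.13 and 0.05. Rod-like barcodes had medians of −0.24, −0.10 and 0.22 for the same list. Stx3, the syntaxin of ribbon synapses, was at 167, 136, 78.9 and 173 CPM, and its ratio of −1.08 (−1.56 to −0.62) at 4 weeks was the widest of these.

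Of the receptors for GABA, glycine and glutamate, 8, 6 and 8 of 10 used genes were below control, with medians of −0.17, −0.10 and −0.40. In rod-poor members 9, 7 and 6 of 11 were below, with medians of −0.30, −0.24 and −0.13. Gabrr2, a subunit of the GABA-C receptor of bipolar terminals, was at 387, 375, 379.7 and 256 CPM, lowest at 8 weeks. Gria2, a subunit of AMPA receptors, was higher than control at 359, 556, 530.1 and 388 CPM.

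Energy genes differed little as lists. Of 33 used nuclear genes of oxidative phosphorylation, 22, 16 and 4 were above control, with medians of 0.12, −0.01 and −0.18, and rod-poor members had medians of 0.00, −0.16 and −0.03. At 8 weeks the count was 4 of 33 over all members and 15 of 33 in rod-poor members. Atp5f1b, the beta subunit of ATP synthase, was at 1618, 1044, 1269 and 1327 CPM, and its log2 ratio at 2 weeks was −0.63 over all members and −0.91 in rod-poor members. Of 18 glycolysis genes, 12, 8 and 12 were below control, with medians of −0.21, 0.08 and −0.17, and of −0.43, 0.07 and −0.07 in rod-poor members. In rod-like barcodes the glycolysis medians were 0.47, 0.45 and 0.12. Hk2, a hexokinase that photoreceptors express strongly, was at 1232, 619, 1192 and 1883 CPM over all members and only 217, 122, 202 and 203 CPM in rod-poor members.

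Targets of the stress factor ATF4 were lower at 2 weeks and to a lesser extent at 4 weeks. Of 14 used genes 13 were below control at 2 weeks and 7 at least 2-fold below, against 3.97% of all genes, with a median log2 ratio of −1.12. At 4 weeks 12 were below control and 5 at least 2-fold below, against 3.02% of all genes, with a median of −0.56. At 8 weeks none passed 2-fold and the median was 0.03. Asns, asparagine synthetase, was at 100.2, 12.6, 16.1 and 83.9 CPM, and Mthfd2, an enzyme of folate metabolism in mitochondria, at 123, 6.30, 30.7 and 83.4 CPM. In rod-poor members the levels were 45.6, 10.5, 17.4 and 37.8 CPM for Asns and 8.05, 8.55, 6.96 and 6.30 CPM for Mthfd2. The rod-poor medians were −0.20, −0.16 and −0.05 over 11 used genes, while rod-like barcodes had −1.74, −1.27 and −0.49. The members' level of Sag, the arrestin of rods, was 31.7, 27.7, 23.9 and 38.4% of that of rod-like barcodes.

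Genes of the cytoskeleton of dendrites and axons had medians of −0.28, 0.15 and −0.15 over 20 used genes, and of −0.45, 0.14 and −0.05 over 21 in rod-poor members. Mapt, the microtubule protein tau, was at 274, 610.5, 472 and 295 CPM, with log2 ratios of 1.15 (0.95 to 1.36), 0.78 (0.53 to 1.03) and 0.10 (−0.12 to 0.33), and of 1.02, 0.64 and 0.14 in rod-poor members. Tuba1b, an alpha tubulin, was at 704, 342, 691 and 592 CPM. The 4-week values of Tubb3 (38.2, 20.1, 139 and 47.2 CPM) and Stmn2 (34.6, 14.6, 109.5 and 37.8 CPM) include the member rich in ganglion cell markers. Of 11 heat shock genes 8, 9 and 7 were below control over all members, with medians of −0.34, −0.34 and −0.05. In rod-poor members 8, 9 and 3 were below, with medians of −0.13, −0.25 and 0.17, so that most were above control at 8 weeks. The immediate early gene Egr1 was at 19.1, 131, 49.6 and 30.4 CPM, and at 131, 764, 44.7 and 36.6 CPM in rod-like barcodes. For genes that rods hold at a higher level than the members, the part of rod RNA in the member values was not tested gene by gene.

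**Figure D4:**
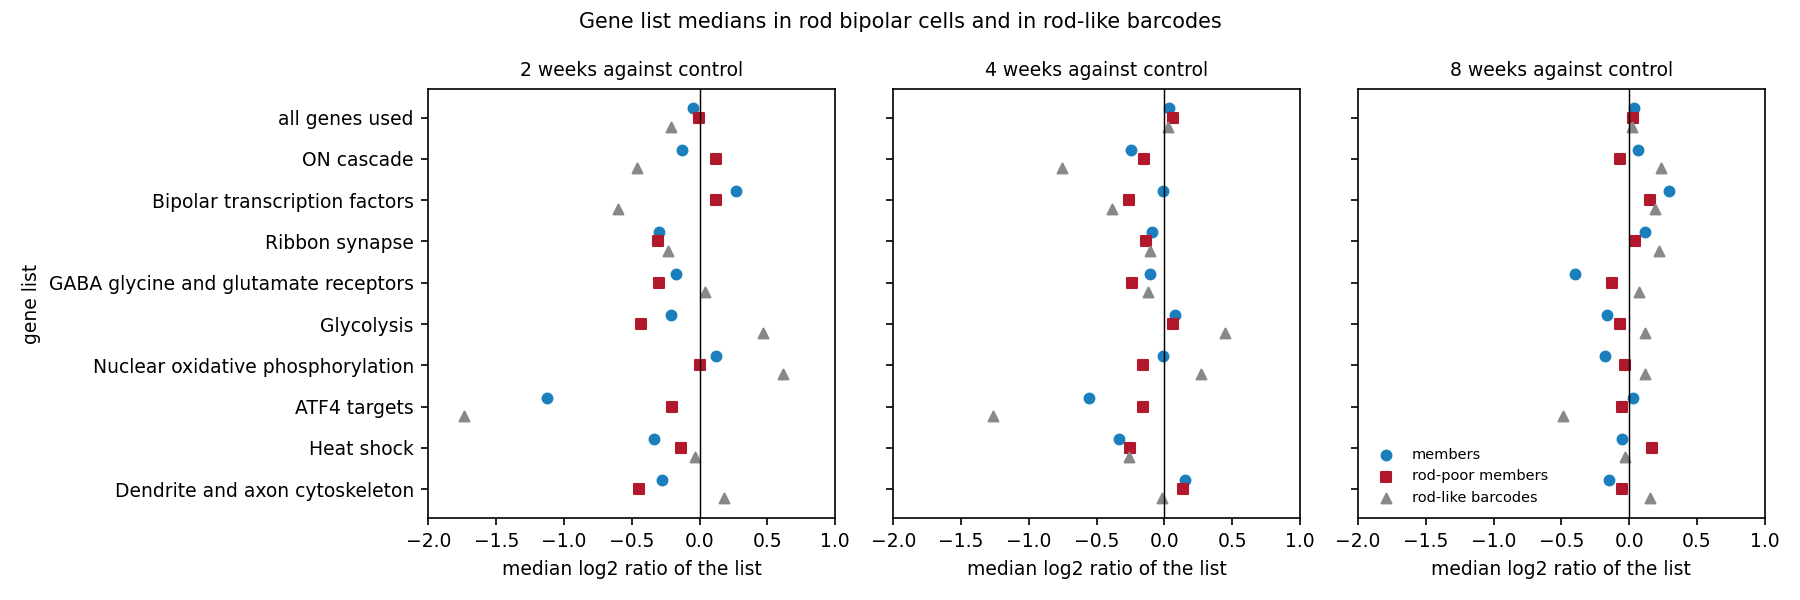
Median log2 ratio to control (x axis) of the used genes of each list (y axis) at 2, 4 and 8 weeks, for all members, rod-poor members and rod-like barcodes. The ATF4 targets lie at −1.12 at 2 weeks in all members, −0.20 in rod-poor members and −1.74 in rod-like barcodes, and most other lists lie near 0.

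Within the mitochondrial RNA of the members, Mt-co1, Mt-co2, Mt-co3 and Mt-atp6 were the highest of the 13 encoded genes in each library, but their order differed. The first was Mt-co3 in control and at 4 weeks, Mt-co2 at 2 weeks and Mt-atp6 at 8 weeks. Mt-co3, subunit 3 of cytochrome oxidase, made up 19.3, 16.4, 19.0 and 16.8% of mitochondrial UMIs, Mt-co1 16.1, 15.8, 15.2 and 15.5%, and Mt-co2 16.2, 19.1, 17.8 and 15.4%. Mt-atp6, a subunit of ATP synthase, made up 18.3, 12.5, 16.9 and 18.0%, and was lowest at 2 weeks. Over all barcodes within the limits Mt-atp6 made up 18.9, 13.3, 16.6 and 18.1%, the same order as in the members. Mt-cyb, of complex III, made up 9.89, 12.4, 12.3 and 11.2%. Of the complex I subunits, Mt-nd4 made up 7.04, 8.50, 6.20 and 8.52%, Mt-nd1 5.44, 7.75, 5.23 and 6.34%, and Mt-nd2 5.22, 4.56, 5.64 and 5.76%. Mt-nd5 was small at 1.14, 1.54, 0.620 and 1.07%, but above the 0.598, 0.984, 0.456 and 0.784% of all barcodes in each library. The remaining 4, Mt-nd3, Mt-nd4l, Mt-atp8 and Mt-nd6, each stayed at or below 1.01%.

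The members above 20% mitochondrial UMIs were then compared with those at or below 20%, the only comparison here with replicates. UMIs were summed on each side in each of the 4 libraries (155, 634, 137 and 309 members above, and 31, 191, 21 and 76 below), and nuclear genes were tested with edgeR's quasi-likelihood test with the library as a block and Benjamini-Hochberg adjustment at 0.05. Of the members, 240 lay within 2 percentage points of the boundary. Of 6976 genes tested, rule genes aside, 190 were higher (2.72%) and 265 lower (3.80%) in members of high mitochondrial share. The sides also differed in other RNA. Rod markers summed to 12806, 15262, 13462 and 22053 CPM in low-share members and 7382, 9823, 8412 and 8816 CPM in high-share members. Endothelial markers summed to 5.61, 340, 14.2 and 191 CPM in low-share and 9.10, 24.6, 7.35 and 4.58 CPM in high-share members, and the ganglion-rich member at 4 weeks lay on the low side. Among rod-poor members (12, 53, 8 and 13 below against 88, 300, 67 and 170 above), 10 of 3714 genes were higher (0.269%) and 34 lower (0.915%), and 27 of these 44 were also among the 455 over all members. Leaving out the members with at least 5 UMIs of the markers of another class (ganglion, Müller, endothelial, microglial, pericyte, horizontal or amacrine, a choice made after seeing the data) gave 635 genes over all members, 421 of them among the 455. In rod-poor members it gave 30 higher (0.889%) and 54 lower (1.60%) of 3373. This choice took out 0, 15, 2 and 1 low-share and 2, 6, 4 and 5 high-share members. Among rod-poor members it took out 0, 6, 1 and 0 on the low-share side. The rule already held Gad1, Gad2 and Slc6a9 to at most 1 UMI, so the amacrine class could be reached only with the other markers of its list. RNA of other neurons in the members that stayed was not tested. Only 2 genes passed once the members marked by Scrublet were removed, and 4 once a scaled profile of rod-like barcodes was subtracted. All of these were lower in members of high mitochondrial share.

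Genes higher in members of high mitochondrial share included Bhlhe23, Isl1 and Scg2. Bhlhe23 was at 61.7, 153, 92.4 and 68.8 CPM in low-share members and 240, 278, 169 and 171 CPM in high-share members. Each library showed the difference, with a log2 fold change of 1.15 ± 0.18 (SE, 4 libraries, edgeR adjusted p = 0.000808), and of 1.24 in rod-poor members (adjusted p = 0.0495). It did not pass in rod-poor members with the boundary at 30% (0.36, edgeR adjusted p = 0.311) or with the rod profile subtracted (0.62, edgeR adjusted p = 0.955). Isl1 was at 275, 908, 426 and 368 CPM against 625, 1329, 908 and 817 CPM, a log2 fold change of 0.95 ± 0.15 (edgeR adjusted p = 0.000808), and of 1.29 in rod-poor members (adjusted p = 0.0321). With the boundary at 30%, where 21 of 3691 genes were higher (0.569%) and 34 lower (0.921%) in rod-poor members, the Isl1 fold change was 0.21 (edgeR adjusted p = 0.459). Scg2 was at 701, 929, 483 and 240.0 CPM against 1948, 1440, 1288 and 978 CPM, higher in every library by a log2 fold change of 1.35 ± 0.18 (edgeR adjusted p = 0.000279). In rod-poor members its value of 0.87 did not pass (edgeR adjusted p = 0.0713), and 0.79 passed once members of another class were left out (edgeR adjusted p = 0.0263).

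Further genes of this direction passed over all members but not in rod-poor members. Pcp4l1, related to the calmodulin-binding protein PCP4, was at 5.61, 28.1, 0 and 5.04 CPM against 81.9, 64.5, 73.5 and 43.5 CPM, with a log2 fold change of 2.16 ± 0.38 (edgeR adjusted p = 0.00136) and of 1.45 in rod-poor members (edgeR adjusted p = 0.36), where it became 2.45 and passed once members of another class were left out (edgeR adjusted p = 0.0194). Vsx1, a homeobox factor of cone bipolar cells, was at 39.2, 54.8, 35.5 and 5.04 CPM against 112, 78.2, 176 and 103 CPM, with an edgeR adjusted p of 0.00457 and of 0.41 in rod-poor members. Tmem132a was at 123, 128, 56.9 and 82.2 CPM against 276, 235, 165 and 229 CPM. Tle6, Ptprz1, Map6, Scgn and Dnajc6 also passed, with log2 fold changes of 1.06 to 1.32. Of these, Scgn (0.55, edgeR adjusted p = 0.42), Ptprz1 (0.79, edgeR adjusted p = 0.204) and Dnajc6 (0.98, edgeR adjusted p = 0.136) did not pass without the 8-week library. The same 3 did not pass without the control library, with edgeR adjusted p of 0.134, 0.0622 and 0.136, nor did Scgn without the 4-week library (edgeR adjusted p = 0.0536).

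Some genes were picked after their values were seen, because they passed in rod-poor members too. Pcp4, a calmodulin-binding protein, was at 3487, 5753, 2232 and 2702 CPM in low-share members and 6075, 7696, 4863 and 5480 CPM in high-share members, with a log2 fold change of 0.82 ± 0.14 (edgeR adjusted p = 0.00131). In rod-poor members it was 1.60 (adjusted p = 0.0123), and 0.60 at the boundary of 30% (adjusted p = 0.00025). Without the control library the edgeR adjusted p over all members was 0.0502. Ccng1 was at 634, 1027, 611 and 391 CPM against 1358, 1474, 1250 and 671 CPM, again higher on the high-share side in each library (rod-poor log2 fold change 1.56, edgeR adjusted p = 0.0313). Without the control library its edgeR adjusted p over all members was 0.0527. Nme1, a nucleoside diphosphate kinase, Scg3, secretogranin III, and Map4, a microtubule protein, passed in both with log2 fold changes of 0.84 to 1.03 over all members. In rod-poor members with the boundary at 30%, Scg3 did not pass (0.35, edgeR adjusted p = 0.118). None of the genes picked this way passed over all members without those marked by Scrublet, nor with the rod profile subtracted. With the subtraction, log2 fold changes were 0.28 for Pcp4, 0.33 for Ccng1, 0.40 for Nme1, 0.38 for Map4 and 0.82 for Scg3. Their edgeR adjusted p then ran from 0.3755 to 0.9546.

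Genes lower in members of high mitochondrial share included Stmn2, Marcks and Jun. Stmn2, a regulator of microtubules in growing axons, was at 129, 32.3, 490.4 and 78.9 CPM in low-share members and 9.10, 7.65, 11.03 and 19.1 CPM in high-share members. Its log2 fold change was −3.20 ± 0.38 (edgeR adjusted p = 9.37e-05), and −2.46 without the 4-week library, which holds the ganglion-rich member (adjusted p = 2.16e-05). In rod-poor members it was −4.84 (edgeR adjusted p = 0.0005), and −4.14 (edgeR adjusted p = 2.37e-06) there without the members rich in markers of another class. Marcks, a protein kinase C substrate at the membrane, was at 207, 77.3, 291 and 80.6 CPM against 42.5, 23.0, 55.1 and 73.3 CPM, with a log2 fold change of −1.54 ± 0.28 (edgeR adjusted p = 0.00166). In rod-poor members without those of another class, Marcks stood at −3.02 (edgeR adjusted p = 2.37e-06). The low-share side was above the high-share side in all 4 libraries for both genes. Uchl1, a neuronal deubiquitinase, missed the threshold without the 4-week library, with a log2 fold change of −0.48 (edgeR adjusted p = 0.536) in place of −1.87. Calb2, the calcium buffer calretinin, was −5.79 with that library and −3.16 without it.

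Fcer1a was at 202, 80.1, 263 and 90.6 CPM against 91.0, 4.37, 55.1 and 45.8 CPM, with a log2 fold change of −1.90 ± 0.31 (edgeR adjusted p = 0.00102), and of −3.07 in rod-poor members (adjusted p = 0.0114). Over both sides its UMIs came from only 19, 20, 13 and 20 members, and 1 member held 16.7, 13.8, 25.4 and 19.3% of them. The Fcer1a difference therefore rests on few cells. Serpini1, the protease inhibitor neuroserpin, was at 589, 142, 327 and 220 CPM against 132, 126, 162 and 128 CPM, with a log2 fold change of −1.01 ± 0.21 (edgeR adjusted p = 0.00567). Its low-share level in control stood above the rest, and without that library the value of −0.65 did not pass (edgeR adjusted p = 0.0978). Jun, an immediate early transcription factor, was at 331, 204, 341 and 336 CPM against 217, 72.7, 184 and 201 CPM, with −0.96 ± 0.16 (edgeR adjusted p = 0.0011), and −1.25 in rod-poor members (adjusted p = 0.0321). Jun was lower on the high-share side in every library. It did not pass in rod-poor members with the boundary at 30% (−0.18, edgeR adjusted p = 0.803) or with the rod profile subtracted (−0.34, edgeR adjusted p = 0.971).

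**Figure D5:**
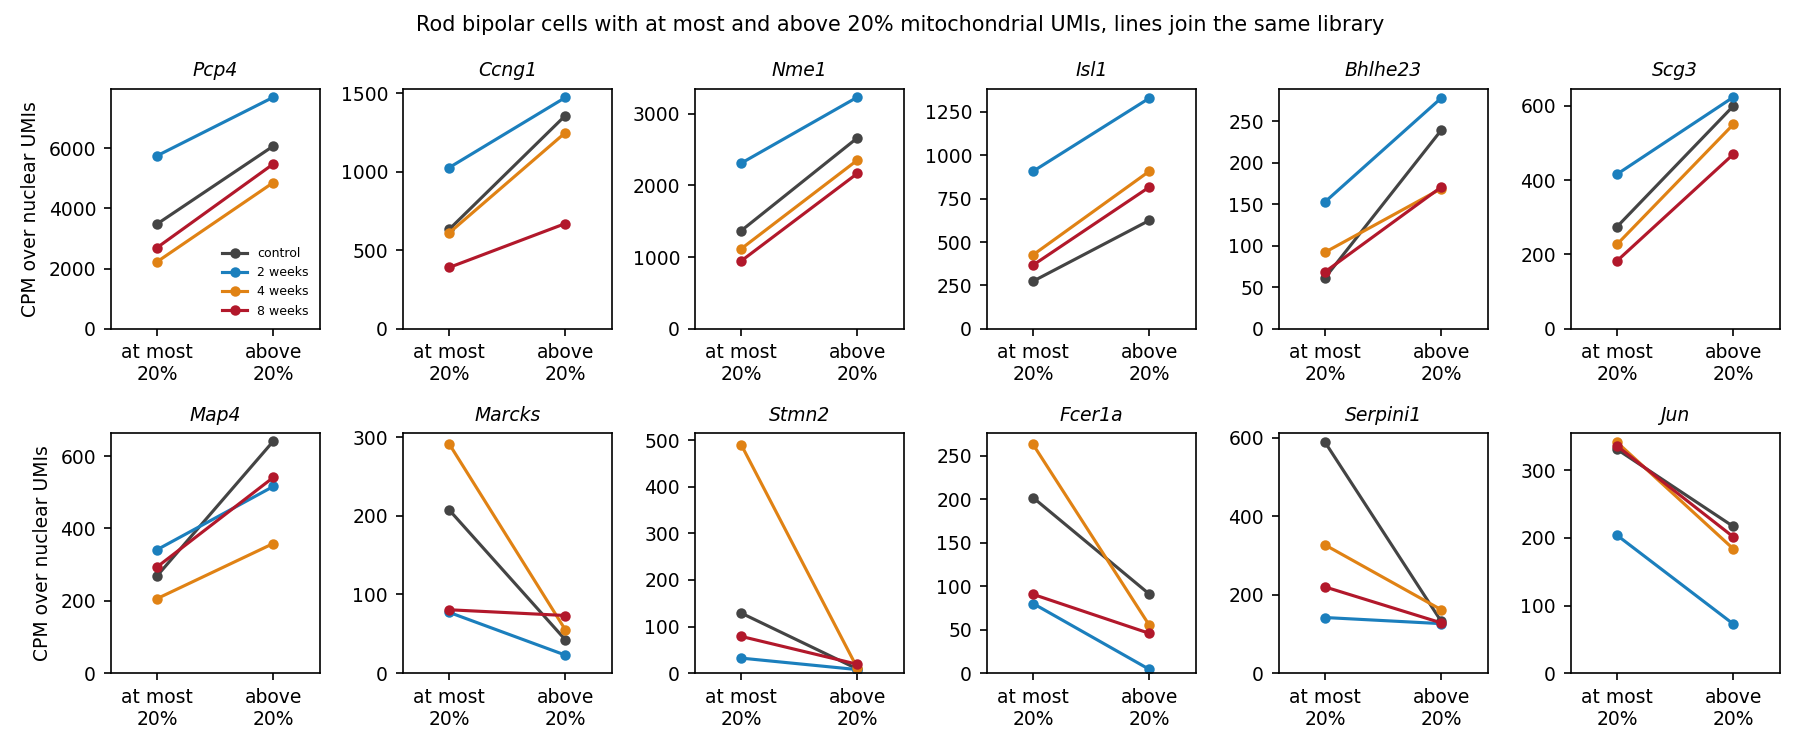
Levels of 12 genes (y axis, CPM, from 0) in members at or below 20% and above 20% mitochondrial UMIs (x axis), with 1 line per library. The lines of Bhlhe23, Isl1, Ccng1 and Pcp4 go up and those of Stmn2, Marcks, Fcer1a and Jun go down in all 4 libraries.

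The lists are read against the 2.72% of all genes tested that were higher and the 3.80% that were lower, and in rod-poor members against 0.269% and 0.915%. The bipolar transcription factors had 6 of 11 tested genes higher and 2 lower in members of high mitochondrial share, with a median log2 fold change of 0.66, against −0.00 over all genes tested. The higher ones included Bhlhe23, Isl1, Neurod4, St18 and Vsx1, and the lower ones were Neurod1 and Prdm1, both also genes of photoreceptors. In rod-poor members 2 of 10 passed, and the median was 0.67. With the boundary at 30% none of the 10 passed there, and the median was 0.26. Of the ON cascade, rule genes aside, Gnao1, Gnb3, Gpr179 and Rgs7 were higher, with log2 fold changes of 0.56 to 0.82, Ric8b was lower at −0.84 (edgeR adjusted p = 0.0434), and the median of 9 was 0.30. None of the 6 tested in rod-poor members passed, although their median was 0.52. Of 12 receptor genes 4 were higher, among them Gabrr1, Gabrr2 and Gria2. Gabrr2 was at 252, 256, 178 and 136 CPM in low-share and 423, 421, 432 and 309.9 CPM in high-share members (log2 fold change 0.94, edgeR adjusted p = 0.00099).

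The nuclear genes of oxidative phosphorylation all lay on 1 side, with 33 of 33 fitted above 0 and a median log2 fold change of 0.32, but only Cox8a passed (0.48, edgeR adjusted p = 0.0311). Of all 6976 genes tested, 3459 were above 0. In rod-poor members 24 of 32 were above 0, the median was 0.11 and none passed. Of all 3714 genes tested there, 1867 were above 0 and 1847 below. Of 14 ATF4 targets 6 were lower (Atf3, Atf4, Ddit4, Mthfd2, Slc3a2 and Trib3), with a median of −0.48, while in rod-poor members none of 7 passed and the median was 0.09. Of 11 immediate early genes 4 were lower (Atf3, Dusp1, Fos and Jun), and of 8 in rod-poor members only Jun. Of 19 cytoskeletal genes 5 were lower and 1 higher over all members, and in rod-poor members 6 of 16 were lower, among them Map1b (−1.19, edgeR adjusted p = 0.0273), Tubb5 (−1.49, edgeR adjusted p = 0.0163) and Tuba1a (−1.09, edgeR adjusted p = 0.0205). Map1b stabilises microtubules of axons, and the other pair are tubulins. Of 8 cholesterol synthesis genes tested in rod-poor members all 8 lay below 0, and Idi1, of the isoprenoid branch, passed at −1.37 (edgeR adjusted p = 0.0495), though not with the boundary at 30% (−0.61, edgeR adjusted p = 0.382). Of 7 genes of class I histocompatibility and interferon response, 4 were lower over all members, and none of 4 passed in rod-poor members.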

How the data were processed

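The deposited matrices hold raw UMI counts per gene and barcode for 25399 genes, not normalized by the authors. Cell Ranger 3.0.1 and Rnor_6.0 stand in the submitters' processing notes, and the annotation release is not given in the sources used here. Per the labels' protocols, retinas were digested in trypsin and DNase I and strained, and red cells were lysed. The lowest total of any barcode was 500 UMIs or more, and emptier droplets were not examined. A total of 128 symbols belong to more than 1 gene, and reads of near-identical genes cannot be told apart. No value columns were left unmapped (0).

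The members and gene lists were chosen with earlier results of these data known. Of the symbols in the 24 lists, 13 were not in the files and 1 was shared by more than 1 gene. Members kept doublets, and Scrublet (scanpy 1.11.5, simulation ratio 2, top 0.8% per 1000 barcodes) served as an alternative. Rod-like barcodes had at least 5 UMIs over a set of rod markers including Sag and Gnat1, Müller-like barcodes at least 10 over Glul, Rlbp1, Slc1a3 and Aqp4, and both none of the bipolar and inhibitory genes of the rule. UMIs were summed per library and scaled to CPM over nuclear UMIs, and log2 ratios had 0.5 counts added to each sum. Genes with a mean of at least 20 CPM were used, and 2-fold was the call. Shares carry Clopper-Pearson 95% intervals and ratios conditional binomial 95% intervals. UMIs are molecules, but intervals leave out differences between animals and preparations. The split at 20% mitochondrial UMIs used edgeR 4.0.16 in R 4.3.3 (filterByExpr, TMM, quasi-likelihood, library as block), where both kinds of member come from each library and the block therefore pairs them by construction. Both calculations were tested on simulated data.

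Per time, the rule for named genes took the 6 highest and 6 lowest ratios whose interval leaves out 0, at a mean of at least 50 CPM and no less than in all barcodes, with at most 20% of UMIs in 1 cell. For the split it took the 10 largest fold changes in each direction under the same limits on level, of which the lower side held 2. All genes of the ON cascade and the mitochondrial genome, and up to 4 genes per list, were added. Genes named outside this were chosen after their values were seen, as were the genes of the comparison with other ON bipolar barcodes. Alternatives were other limits on mitochondrial share, marker UMIs, depth and level, thinning, doublet removal, other scalings, DESeq2 1.42.0, libraries left out and, added after seeing the data, rod-poor members, subtraction of a rod profile, and members of another class left out. Promoters are from RefSeq on GRCr8, whose coordinates were not used for the features of the files.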

Additional observations from a re-analysis of the deposited data

Results flagged for a closer look

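Barcodes that met every marker condition of rod bipolar cells but held more than 40% mitochondrial UMIs lay outside all comparisons of genes. They entered only the shares taken with no limit on mitochondrial UMIs. There were 131 in the control library, 129 at 2 weeks, 71 at 4 weeks and 96 at 8 weeks, or 427 beside the 1554 members. These barcodes stand out as a signal in data that no comparison of genes used. Their median mitochondrial share was 49.2, 46.7, 49.7 and 46.5%, at a median depth of 4639, 2455, 3526 and 3911 UMIs. Rod-poor barcodes were 67.9, 31.0, 70.4 and 66.7% of them. They carried the factors of the members, with Isl1 at 757, 1118, 886 and 887 CPM and Bhlhe23 at 206, 127, 144 and 157 CPM. With no limit on the mitochondrial share, the share of rod bipolar barcodes was 3.31, 5.93, 2.19 and 6.48%.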

How the results depend on the processing

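Counts of genes at least 2-fold apart moved most with depth and level. Against 352, 367 and 140 genes at 2, 4 and 8 weeks, they were 1171, 1436 and 913 in members of at most 20% mitochondrial UMIs, 1022, 1295 and 869 with barcodes thinned to 1000 UMIs, 1079, 1237 and 660 at a mean of 5 CPM, 63, 26 and 13 at 100 CPM, and 547, 677 and 477 after subtraction of a rod profile. Rod-poor members gave 706 at 4 and 326 at 8 weeks, and at 8 weeks doublet removal gave 527 and scaling by all UMIs 92. Log2 ratios of the shares (1.37, −0.37 and 1.47) kept their direction, but the 4-week ratio was not always clear of 0. Its interval included 0 at the 20% limit (−1.62 to 0.10). The same held for barcodes with at least 1000 UMIs (−0.14, from −0.46 to 0.17) and without doublets (−0.10, from −0.46 to 0.26). The ratios became 1.85, −0.75 and 1.99 at the 20% limit. At 2 weeks they were 0.84 with no limit, 1.05 at 2 marker UMIs, 1.62 without doublets and 1.04 in rod-poor members, and at 8 weeks 0.97 with no limit, 1.19 at 1000 UMIs, 0.88 thinned and 1.88 without doublets. The split called 455 genes, 301 with the boundary at 15%, 250 at 30%, 57 thinned, 2 without doublets (504 at an unadjusted p under 0.05), 4 with the rod profile subtracted, 44 in rod-poor members, 55 there at 30%, 84 there with members of another class left out, 201 with DESeq2 (2843 adjusted p not given) and 762 with no filter on low counts. Without the replicate block edgeR called 0 genes (741 at an unadjusted p under 0.05). Leaving out a library gave 144 to 480, with 144 without control and 233 without the 8-week library. Reversed values were Wdr70 at 4 weeks when thinned (−0.064), and Pcp4l1 (−0.014) and Dnajc6 (−2.1e-05) in the split of rod-poor members at 30%. Of the other values of named genes, 415 at the 3 times kept and 52 moved, and 124 in the split kept their call while 82 lost it. Of the list medians, 801 kept and 36 moved. The cause of these shifts was not tested. The planned subtraction of each library's whole profile was not run. Depth limits the 4-week library, with 158 members, most.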
